A study of Mus musculus with 12 samples.

Results

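Bipolar cells are the interneurons that carry signals from rod and cone photoreceptors to the inner retina. Expression of 9 genes that mark these cells or direct their development was examined in mouse retinal explants, as 9 of the 53707 genes in the count table. The genes were taken by symbol: Vsx1, Bhlhe23, Cabp5, Prkca, Scgn, Car8, Sebox, Isl1 and Prdm8. All 9 were in the table and all 9 were among the 21061 genes with enough counts to be tested. Retinas of C57Bl/6J mice at 28 days of age, freed of sclera and pigment epithelium, were kept for 48 hours in Neurobasal-A medium with 5 mM or 25 mM glucose. Each concentration had 3 biological replicates and 2 technical replicates of each, giving 12 libraries, with the first technical replicates in batch 1 and the second in batch 2. The medium with 5 mM glucose served as the reference, and no group carried a mutation or transgene. The libraries held RNA of the whole retina, in which fewer bipolar cells and less RNA per bipolar cell cannot be told apart.

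Rod bipolar cells and several types of cone bipolar cells arise late in retinal development from shared progenitors, and homeodomain, basic helix-loop-helix and PR domain transcription factors set their type. ON bipolar cells invert the photoreceptor signal through a metabotropic glutamate receptor, whereas OFF cone bipolar cells keep its sign through ionotropic receptors. Prkca, Car8 and Sebox are used as genes of rod bipolar cells, Cabp5, Scgn and Vsx1 are found in particular bipolar types, and Isl1 is also made by cholinergic amacrine and ganglion cells.

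The depth of the libraries lay between 17998905 and 36692484 counts at 5 mM glucose and between 14815285 and 23129541 at 25 mM, and mitochondrial genes took 5.91% to 15.4% of the counts. Levels of genes of other retinal cells also differed between the concentrations. The summed level of 8 rod genes was 2714 to 5166 CPM (counts scaled to library size) at 5 mM and 5893 to 8094 CPM at 25 mM, and that of 6 endothelial genes was 753 to 1511 CPM and 317 to 627 CPM. All 8 rod genes had a higher estimate at 25 mM, 5 of them past a false discovery rate (FDR) of 0.05. All 6 endothelial genes had a lower one, 0 past it, and 1.98% of all genes tested were past it in either direction. Summed over the 9 bipolar genes, the level was 897 to 1202 CPM at 5 mM and 750 to 894 CPM at 25 mM. Prkca and Car8 hold most of that sum. In batch 1 alone the sum was 689 to 1023 CPM at 5 mM and 723 to 903 CPM at 25 mM, which overlap. In batch 2 alone it was 1129 to 1422 CPM and 760 to 919 CPM, which do not overlap. The sum of 40 other bipolar genes was 2246 to 2673 CPM at 5 mM and 2230 to 3185 CPM at 25 mM, which overlap. No gene of these 3 lists was at 0. The part of the rod and endothelial genes in the bipolar values was not tested.

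The regulatory sequence of these genes was read first, because homeodomain proteins of the OTX and CRX type act on retinal promoters through the letters TAATCC. RefSeq promoters on GRCm38.p6, reaching from 250 bases before to 50 bases after the start, were found for 8 of the 9 genes, all but Car8. On either strand, TAATCC was in 2 of the 8, and 7.06% of 32851 promoters of that length held it. The pair was Cabp5, with 2 matches, and Isl1, with 1, and 0.359% of all promoters held 2 or more. The 250 bases before the start are shown for both genes, 5′ to 3′ on the strand of the gene, with the TAATCC letters in capitals. They cover chr7:13397905-13398154 on the plus strand for Cabp5 and chr13:116309689-116309938 on the minus strand for Isl1.
Cabp5: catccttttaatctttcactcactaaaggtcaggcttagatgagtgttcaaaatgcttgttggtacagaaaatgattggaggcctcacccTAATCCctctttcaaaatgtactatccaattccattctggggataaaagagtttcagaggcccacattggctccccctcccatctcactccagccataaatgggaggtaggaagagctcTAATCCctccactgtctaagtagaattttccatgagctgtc
Isl1: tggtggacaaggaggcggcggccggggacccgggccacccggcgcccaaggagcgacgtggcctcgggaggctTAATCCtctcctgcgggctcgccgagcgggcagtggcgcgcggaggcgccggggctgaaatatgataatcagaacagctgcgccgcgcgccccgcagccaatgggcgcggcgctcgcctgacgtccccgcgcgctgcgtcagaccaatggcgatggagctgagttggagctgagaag
In Cabp5 the matches began at positions -160 and -41 relative to the start, and in Isl1 at -177. Of the other motifs searched on both strands, TAATTA, the core of VSX type sites, was in 0 of the 8 promoters and in 5.29% of all. CAGCTG, an E-box of the kind that basic helix-loop-helix factors bind, was in 3 of 8, with 2 matches in Vsx1 and 1 each in Isl1 and Prdm8, and 16.3% of all promoters held it.

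The comparison of 25 mM with 5 mM glucose asked how the bipolar genes responded to raised glucose over all libraries. The technical replicates were summed, and values are CPM scaled by the trimmed mean of M values (TMM). In edgeR's quasi-likelihood test with Benjamini-Hochberg adjustment over all genes, 0 of the 9 genes passed an FDR of 0.05, against 1.98% of all genes tested (417 of 21061), 1.47% higher and 0.513% lower. At an unadjusted p under 0.05 there were 5 of 9, 2 of them higher and 3 lower, against 28.7% of all genes (6052 of 21061). The estimates were above 0 for 5 genes and below 0 for 4, with a median log2 fold change of 0.10 beside -0.01 over all genes. With simulated counts, 3 against 3, the edgeR test called 8 of 100 genes with a log2 change of 1 at this FDR. A gene short of the threshold is therefore not shown to be unchanged. The share recovered in the real data can differ. The simulation changed only 100 genes by a log2 of 1 and 100 by 2 among 21129, with the same coefficient of variation for all. Replicates of both groups did not overlap for 3 of the 9 genes, Prkca, Car8 and Prdm8, each lower at 25 mM, while 31.8% of all genes tested did not overlap in either direction.

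Among the rod bipolar genes, Prkca encodes protein kinase C alpha, the antigen by which rod bipolar cells are commonly stained. It lies at chr11:107933387-108343928 on the minus strand (GRCm38). Its level was 454, 349 and 372 CPM in replicates 1, 2 and 3 at 5 mM glucose and 207, 239 and 235 CPM at 25 mM. Every replicate at 25 mM was below every replicate at 5 mM. The mean was 392 ± 55.3 (SD, n = 3) at 5 mM and 227 ± 17.2 at 25 mM, a log2 fold change of -0.79 (SE 0.17), and edgeR gave an FDR of 0.0581. The exact two-sided permutation test over the replicates gave p = 0.1, the smallest that 3 against 3 allow. Prkca passed the threshold under 8 of 21 alternatives, which called between 1.80% and 26.6% of all genes. Among the 8 was the fit of 12 libraries as separate samples, in which technical replicates counted as independent. Others left out data: batch 1 alone, the second technical replicate of 5 mM replicate 1 dropped, and the fit without 5 mM replicate 1. Over the 21 it had an FDR between 0.00299 and 0.392 and a negative estimate each time. It shares 30 of its 8992 exon bases with Apoh on the opposite strand, a gene at 0.224 CPM at 5 mM and 0.203 CPM at 25 mM.

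Car8 encodes a carbonic anhydrase-related protein that lacks enzyme activity, and it lies at chr4:8143362-8239041 on the minus strand. It stood at 452, 313 and 347 CPM at 5 mM and at 262, 251 and 258 CPM at 25 mM. The 5 mM replicates were all higher and more spread than the 25 mM replicates. Means were 371 ± 72.9 and 257 ± 5.87 CPM (SD, n = 3), with a log2 fold change of -0.53 (SE 0.19), an unadjusted p of 0.0211 and an FDR of 0.116 in edgeR.

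Bhlhe23, a basic helix-loop-helix factor needed for rod bipolar cells to mature, lies at chr2:180774381-180776900 on the minus strand. Its level was 8.40, 15.2 and 13.8 CPM at 5 mM and 8.93, 5.86 and 8.09 CPM at 25 mM. Replicate 1 at 5 mM fell among the 25 mM replicates, and the other two 5 mM replicates were above them. The log2 fold change was -0.71 (SE 0.30), with an edgeR FDR of 0.167. Without 5 mM replicate 1 it was -0.93, with an FDR of 0.0317, in a fit that called 26.6% of all genes (5845 of 21945). With any other replicate left out, Bhlhe23 was between -0.83 and -0.54, with an FDR of 0.209 to 0.440. Bhlhe23 shares 144 of its 2520 exon bases with Gm14343 on the same strand, which was at 0.528 CPM at 5 mM and 0.827 CPM at 25 mM.

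Prdm8, a PR domain factor required for rod bipolar and some OFF cone bipolar cells, lies at chr5:98167198-98188991 on the plus strand. It was at 32.7, 34.7 and 31.9 CPM at 5 mM and at 31.4, 25.7 and 25.5 CPM at 25 mM. The gap between the lowest 5 mM and the highest 25 mM replicate was small, though the groups did not overlap. The log2 fold change was -0.27 (SE 0.18), with an edgeR FDR of 0.336. Of its 4855 exon bases, 1411 lie opposite the antisense gene A730035I17Rik, which was at 1.06 CPM at 5 mM and 0.941 CPM at 25 mM.

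Sebox, a homeobox gene, lies at chr11:78503447-78505081 on the plus strand. It was at 34.8, 45.1 and 44.1 CPM at 5 mM and at 49.4, 38.4 and 45.4 CPM at 25 mM. The groups were interleaved, with a log2 fold change of 0.10 (SE 0.18) and an edgeR FDR of 0.730. Isl1, a LIM homeodomain factor that ON bipolar cells require, lies at chr13:116298281-116309689 on the minus strand. It was at 109, 86.5 and 96.2 CPM at 5 mM and at 146, 116 and 91.7 CPM at 25 mM. In Isl1, 25 mM replicates 1 and 2 were above the 5 mM replicates and replicate 3 lay among them, with a log2 fold change of 0.28 (SE 0.20) and an edgeR FDR of 0.379. The change of Isl1 was 0.11 without 25 mM replicate 1, 0.43 without 25 mM replicate 3 and 0.49 with the second technical replicate of 5 mM replicate 1 dropped, none past an FDR of 0.05.

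Cabp5 encodes a neuronal calcium-binding protein and lies at chr7:13398132-13408887 on the plus strand. Its level was 46.1, 22.7 and 23.7 CPM at 5 mM and 81.3, 64.3 and 38.5 CPM at 25 mM. Only replicate 3 at 25 mM fell below a 5 mM replicate, which was replicate 1. Means were 30.8 ± 13.2 and 61.4 ± 21.6 CPM (SD, n = 3), a log2 fold change of 0.99 (SE 0.36) with an unadjusted p of 0.0225 and an FDR of 0.119 in edgeR.

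Scgn encodes secretagogin, another calcium-binding protein, found in cone bipolar cells. It lies at chr13:23953456-23991214 on the minus strand. Its level was 56.0, 26.2 and 18.9 CPM at 5 mM and 94.2, 70.2 and 42.4 CPM at 25 mM. The same pair of replicates overlapped as in Cabp5. The log2 fold change was 1.03 (SE 0.43), with an edgeR FDR of 0.160. Without 5 mM replicate 1, in the fit that called 26.6% of all genes, the change was 1.61 for Scgn (FDR 0.0172) and 1.40 for Cabp5 (FDR 0.0182). With any other replicate left out, Scgn was between 0.74 and 1.28 (FDR 0.106 to 0.403). Cabp5 was then between 0.75 and 1.24 (FDR 0.0719 to 0.328).

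Vsx1, a homeodomain factor of OFF cone bipolar cells, lies at chr2:150680702-150689360 on the minus strand. Its level was 9.48, 5.36 and 3.47 CPM at 5 mM and 14.0, 10.3 and 5.27 CPM at 25 mM. These values rested on 163 to 603 counts per replicate. The groups overlapped, and the log2 fold change of 0.69 (SE 0.46) had an edgeR FDR of 0.343. It was 1.15 without 5 mM replicate 1, 0.39 without 5 mM replicate 3, 0.35 without 25 mM replicate 1 and 1.07 with the second technical replicate of 5 mM replicate 1 dropped, none past an FDR of 0.05.

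**Figure D1:**
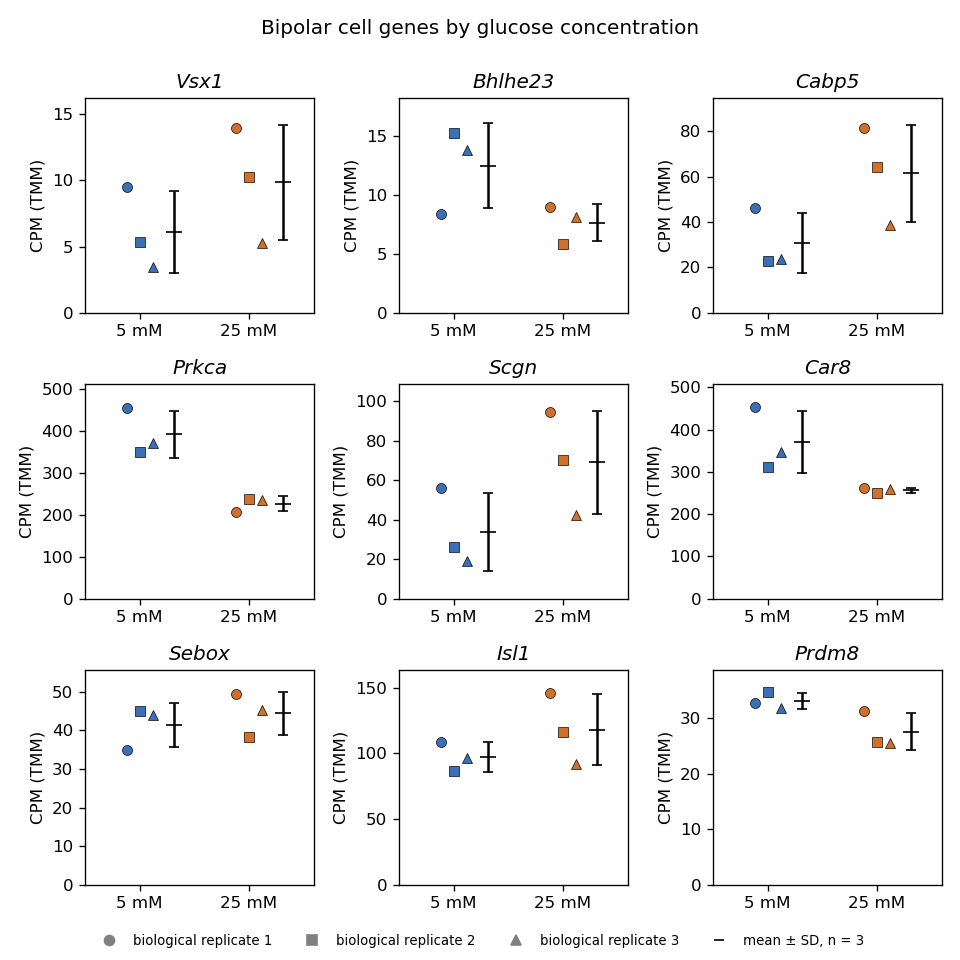
Each panel plots one gene, with CPM from 0 on the vertical axis, 5 mM (blue) and 25 mM (orange) glucose on the horizontal axis, a symbol for each biological replicate, and the mean with its SD in black. Prkca, Car8 and Prdm8 have all 25 mM replicates below all 5 mM replicates, and in Cabp5, Scgn and Vsx1 the means are higher at 25 mM but the symbols of both groups overlap.

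The plot of replicates shows that for Vsx1, Cabp5 and Scgn replicate 1 was the highest in each group and that these genes were ordered alike among the 25 mM replicates. Over the 12 libraries, log2 CPM of Scgn followed that of Vsx1 (Pearson r = 0.97) and of Cabp5 (r = 0.93), and Isl1 followed Cabp5 (r = 0.87). Car8 followed Prkca (r = 0.88), whereas Prkca and Cabp5 had the lowest value of the 36 pairs (r = -0.43). These are descriptions over libraries that share biological replicates and batches. Outside the 9 genes and among protein-coding genes, the log2 CPM most like their mean profile belonged to Prox1 (r = 0.97), Car10 (r = 0.96) and Tmem132d (r = 0.95), each over 12 libraries. Their log2 fold changes were -0.03, -0.09 and -0.23, with edgeR FDR of 0.930, 0.797 and 0.480.

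The glucose comparison was then made in each batch. In batch 1 alone, 5 of the 9 genes passed an FDR of 0.05, against 17.3% of all genes tested, and the libraries of 5 did not overlap, against 39.8% of all genes. In batch 2 alone, 0 passed, as did 0% of all genes (0 of 18811), while 3 members were at an unadjusted p under 0.05, against 11.7% of all genes (2203). The libraries of 4 members did not overlap in batch 2, against 16.4% of all genes. The median log2 fold change of the 9 was 0.68 in batch 1, with 5 estimates above 0, and -0.35 in batch 2, with 1 above 0. Over all genes the median was 0.01 in batch 1, with 50.7% above 0, and -0.03 in batch 2, with 47.9% above 0.

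Scgn had 26.7, 6.34 and 15.3 CPM at 5 mM and 105, 105 and 68.4 CPM at 25 mM in batch 1. In batch 2 it had 95.3, 51.6 and 22.0 CPM at 5 mM and 87.0, 50.8 and 18.9 CPM at 25 mM. The batch 1 groups were far apart and the batch 2 groups were nearly the same. The log2 fold change was 2.52 (SE 0.47, FDR 0.0129 in edgeR) in batch 1 and -0.13 (SE 0.62, FDR 0.934) in batch 2.

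Cabp5 had 22.2, 14.8 and 13.6 CPM at 5 mM and 74.5, 102 and 53.2 CPM at 25 mM in batch 1. In batch 2 it had 78.0, 32.7 and 32.9 CPM at 5 mM and 91.5, 43.4 and 24.9 CPM at 25 mM. Here too the groups were apart in batch 1 and overlapped in batch 2. The log2 fold change was 2.17 (SE 0.31, edgeR FDR 0.00832) and 0.14 (SE 0.52, FDR 0.916).

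Vsx1 had 5.14, 1.08 and 3.26 CPM at 5 mM and 12.1, 13.1 and 8.75 CPM at 25 mM in batch 1. In batch 2 it had 15.3, 10.8 and 3.60 CPM at 5 mM and 16.5, 8.78 and 2.09 CPM at 25 mM. Its log2 fold change was 1.82 (SE 0.52, edgeR FDR 0.0452) in batch 1 and -0.14 (SE 0.74, FDR 0.940) in batch 2, where both the highest and the lowest library were at 25 mM.

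Isl1 had 67.9, 66.1 and 59.6 CPM at 5 mM and 173, 131 and 104 CPM at 25 mM in batch 1. In batch 2 it had 163, 112 and 130 CPM at 5 mM and 124, 111 and 79.2 CPM at 25 mM. The 5 mM libraries of this LIM homeodomain gene were the lower ones in batch 1, whereas the groups overlapped in batch 2 with a lower mean at 25 mM. Its log2 fold change was 1.07 (SE 0.23, edgeR FDR 0.0194) in batch 1 and -0.37 (SE 0.24, FDR 0.509) in batch 2.

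Prkca was lower at 25 mM without overlap in both batches. The batches hold technical replicates of the same biological replicates, so these comparisons are not independent. It had 434, 307 and 278 CPM at 5 mM and 177, 149 and 167 CPM at 25 mM in batch 1. In batch 2 it had 470, 400 and 457 CPM at 5 mM and 247, 298 and 290 CPM at 25 mM. Its log2 fold change was -1.06 (SE 0.24, edgeR FDR 0.0208) in batch 1 and -0.66 (SE 0.20, FDR 0.392) in batch 2.

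The other rod bipolar genes did not pass the test in either batch. For Car8 the estimates were -0.42 in batch 1 and -0.67 in batch 2, for Bhlhe23 -0.26 and -1.06, and for Prdm8 -0.19 and -0.34, all on the log2 scale. Sebox was at 0.68 in batch 1 and at -0.35 in batch 2. In batch 2 the 25 mM libraries of Car8, Bhlhe23 and Sebox were all below the 5 mM libraries.

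**Figure D2:**
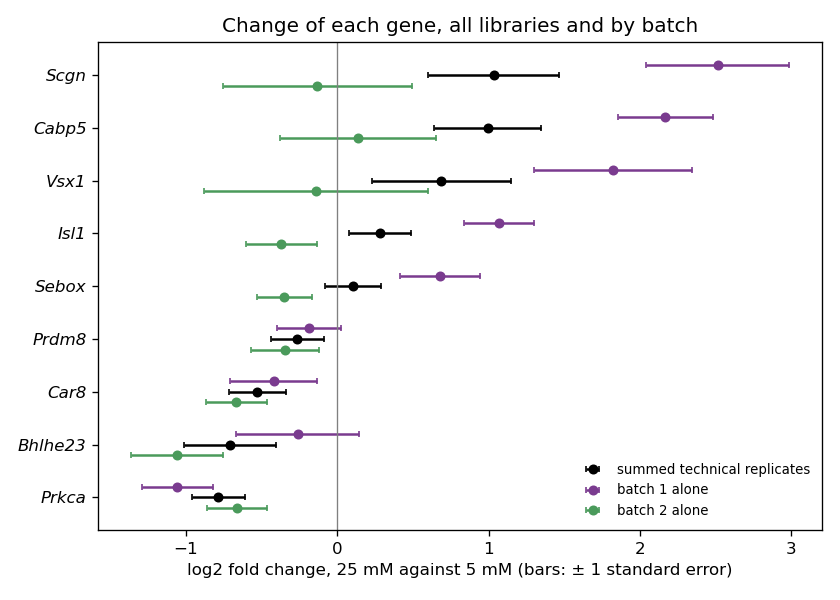
The horizontal axis is the log2 fold change of 25 mM against 5 mM glucose with bars of 1 standard error, and each gene has a point for the summed technical replicates (black), batch 1 (purple) and batch 2 (green). Scgn, Cabp5, Vsx1 and Isl1 lie to the right of 0 in batch 1 and near or left of 0 in batch 2, and Prkca lies to the left of 0 in all 3.

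The difference between the batches was tested within biological replicates over all genes. In edgeR's test of the batch by glucose term, 5 of the 9 genes had an unadjusted p under 0.05, as did 16.3% of all genes (3056 of 18725), and 0 of 9 passed an FDR of 0.05, as did 0 of all genes. The glucose log2 fold change of Isl1 was lower in batch 2 than in batch 1 by a difference of -1.43 (SE 0.21, unadjusted p = 0.000166, FDR 0.121 in edgeR). That of Cabp5 differed by -2.10 (SE 0.44, FDR 0.173), that of Scgn by -2.85 (SE 0.67, FDR 0.178), that of Sebox by -1.04 (SE 0.25, FDR 0.178) and that of Vsx1 by -2.34 (SE 0.92, FDR 0.275). For Prkca the difference was 0.34 (SE 0.25, FDR 0.512), and for Bhlhe23, Car8 and Prdm8 it was -0.75, -0.28 and -0.18.

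The technical pairs were then compared directly. At 5 mM glucose, the second technical replicate was higher than the first in 27 of 27 pairs, that is in all 3 replicates of all 9 genes. Over all genes tested, 19.0% were higher in all 3 second libraries at 5 mM, and 50.9% of the pairs were. At 25 mM the second was higher in 13 of 27 pairs, and in all 3 replicates for Prkca and Prdm8 alone, 2 of 9 genes against 13.0% of all genes and 48.0% of all pairs. Scgn and Isl1 were lower in every second library at 25 mM. The widest pair was Vsx1 in 5 mM replicate 2, at 1.08 CPM in the first library and 10.8 CPM in the second, a ratio of 9.96. In the same replicate Scgn had a ratio of 8.14, and for Prdm8 at 5 mM the ratios ran only from 1.03 to 1.37.

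**Figure D3:**
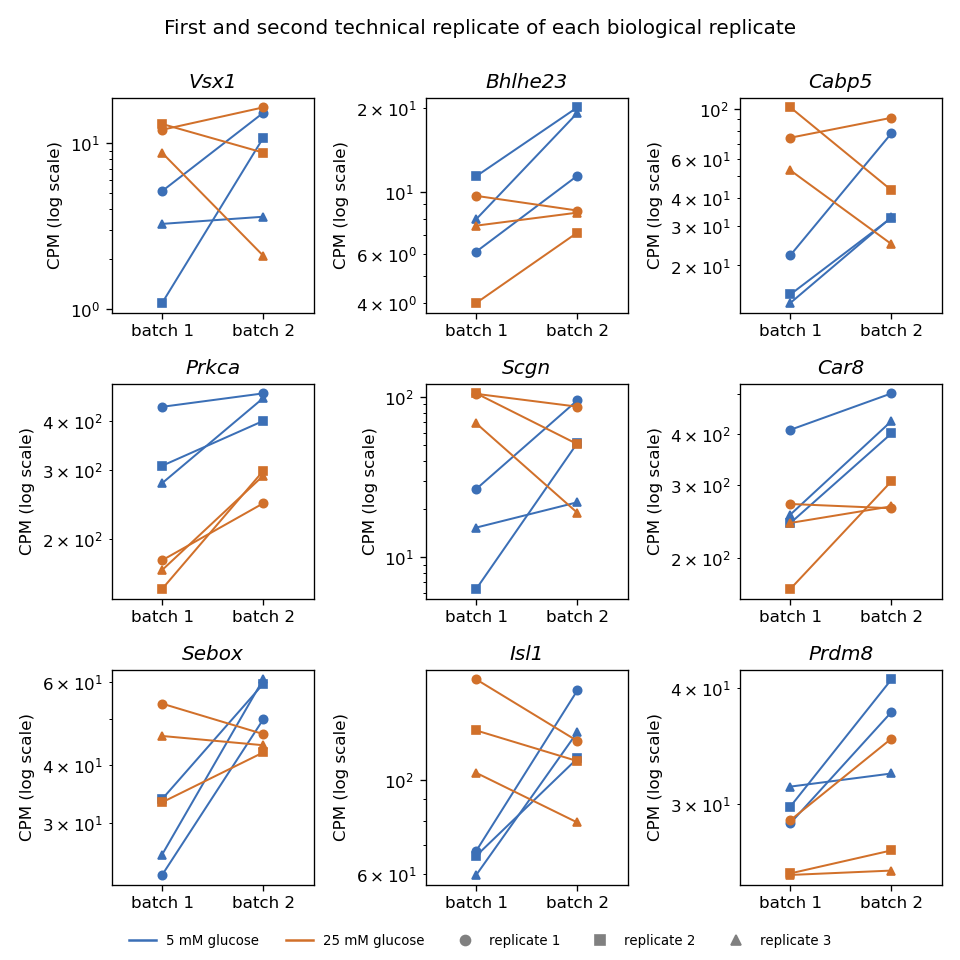
Each panel plots one gene on a log axis of CPM, with lines that join the batch 1 and the batch 2 library of each biological replicate at 5 mM (blue) and 25 mM (orange) glucose. All 27 blue lines rise, while of the 27 orange lines 13 rise.

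The summed level of the endothelial genes was lower in every second library at 5 mM, where the bipolar genes were higher. It went from 977 to 424 CPM, from 1959 to 753 CPM and from 1820 to 1213 CPM, and at 25 mM it was higher in all 3 second libraries, as was the summed level of the 9 bipolar genes. The summed rod level was 2704 and 2662 CPM, 5350 and 4903 CPM, and 4507 and 4685 CPM in the 5 mM pairs. The part of the endothelial or the rod genes in these bipolar values was not tested.

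Per length, as TPM (transcript counts divided by length and scaled to a fixed total) summed over the transcripts of each gene, the order of the mean levels at 5 mM was Car8 (180), Prkca (162), Isl1 (99.9), Sebox (58.9), Scgn (47.2), Cabp5 (33.5), Prdm8 (18.1), Bhlhe23 (9.35) and Vsx1 (3.00). The replicates of Car8 and Prkca, of Sebox and Scgn, and of Scgn and Cabp5 overlapped. At 25 mM the order was Car8 (137), Isl1 (136), Scgn (106), Prkca (105), Cabp5 (73.8), Sebox (68.9), Prdm8 (16.5), Bhlhe23 (6.26) and Vsx1 (5.36). There, only Sebox and Prdm8, and Prdm8 and Bhlhe23, were neighbours without overlap, so the first 6 places were not separated one from the next. Dividing gene counts by the length of all exons, in place of transcript counts by transcript lengths, exchanged Sebox and Isl1 at 5 mM. At 25 mM it gave Car8, Scgn, Sebox, Isl1, Prkca, Cabp5, Prdm8, Bhlhe23 and Vsx1 from the highest to the lowest. The order of 5 genes there thus depended on the counts and lengths used, which changed together.

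The transcript table shows which forms carried the counts. None of 64990 transcripts tested passed an FDR of 0.05 in edgeR (0%, with 10668 at an unadjusted p under 0.05), so transcript values are given as levels. Prkca had 2 protein-coding transcripts, of 8409 and 2265 bases. The longer one was at 284, 199 and 211 CPM at 5 mM and at 209, 187 and 158 CPM at 25 mM, with a log2 fold change of -0.33 (SE 0.21, edgeR FDR 0.458). The shorter one was at 139, 69.4 and 92.7 CPM at 5 mM and at 47.6, 59.0 and 51.3 CPM at 25 mM, with a log2 fold change of -0.93 (SE 0.28, FDR 0.232). The longer form overlapped between the groups and the shorter did not. The share of all transcripts without overlap was not counted, and 31.8% of all genes tested did not overlap. Whether the 2 forms changed differently was not tested. The share of the longer form was 67.7% ± 2.30 at 5 mM and 76.5% ± 4.26 at 25 mM (SD, n = 3), and these shares did not overlap. With transcript counts summed per gene, Prkca had a log2 fold change of -0.42 and an FDR of 0.187, so the size of its change depended on the table used.

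**Figure D4:**
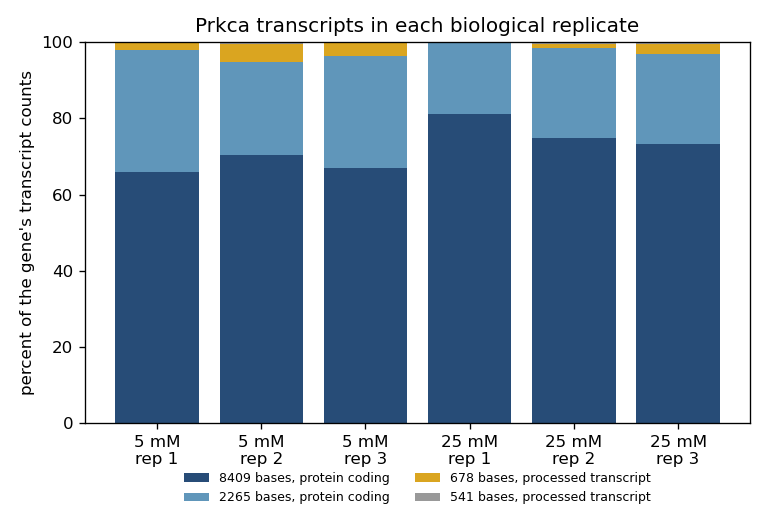
The vertical axis is the percent of the transcript counts of Prkca, and the bars stand for the 6 biological replicates with a colour for each transcript by its length. The 8409 base form takes 65.9% to 70.3% at 5 mM and 73.2% to 81.3% at 25 mM.

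Of the other genes, Scgn had 98.1% of its counts at 5 mM in 1 transcript, Cabp5 had 90.3% and Prdm8 89.4%, while Vsx1, Bhlhe23 and Car8 had 1 transcript each. In Isl1 the main coding form took 64.6% ± 2.82 at 5 mM and 64.5% ± 0.76 at 25 mM, and a retained intron form of 1864 bases took 18.7% ± 4.25 and 25.7% ± 3.45. The 2 transcripts of Sebox, of 1351 and 1300 bases, traded counts between replicates of the same group. The longer one took 27.8%, 97.2% and 80.0% at 5 mM and 54.0%, 13.2% and 42.5% at 25 mM, and the groups overlapped.

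A wider list of 40 bipolar genes was read beside the 9. All 40 were tested, 23 with a higher and 17 with a lower estimate at 25 mM, and their median log2 fold change was 0.08. At an FDR of 0.05, 1 of the 40 passed as higher and 0 as lower, against 1.47% and 0.513% of all genes tested. The gene that passed was Lrit3, a transmembrane protein of the synapse between photoreceptors and ON bipolar cells. Its log2 fold change was 2.14 (SE 0.34, edgeR FDR 0.0330), with 3.07 in batch 1 and 1.49 in batch 2. Which cells held the Lrit3 RNA was not tested. Grik1, a kainate receptor subunit of OFF bipolar cells, followed at 1.52 (SE 0.56, FDR 0.129). The lowest were Tpbg, a leucine-rich repeat glycoprotein of the cell membrane, at -1.07 (SE 0.31, FDR 0.0827) and Pcp2, a modulator of G proteins in ON bipolar cells, at -0.97 (SE 0.43, FDR 0.177). The direction of Pcp2 turned with batch, at 0.42 in batch 1 and -1.93 in batch 2. By batch, the median of the list was 0.86 in batch 1, with 30 of 39 estimates above 0, and -0.45 in batch 2, with 7 of 39. Over all genes, 50.7% of the estimates were above 0 in batch 1 and 47.9% in batch 2. At 5 mM the second technical replicate was higher in 94 of 120 pairs of this list, and at 25 mM in 32 of 120.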

How the data were processed

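Total RNA of retinal explants was sequenced as paired reads of 101 bases, from a stranded kit that took 4 ng as input and amplified it over 13 cycles. The authors deposited expected counts for genes and for transcripts, with technical replicates kept apart and not normalized between libraries. The build named in the submitters' processing notes was GRCm38, and the counting tool, its annotation and its strand setting are not given in the sources used here. Of the nonzero gene values, 100% were not whole, and gene values were not always the sum of the transcript values. Positions are from GENCODE M21 on GRCm38, to which 90.8% of gene identifiers matched, holding 99.2% to 99.6% of counts.

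Technical replicates were summed and rounded, giving totals of 43002302 to 60098862 counts at 5 mM and 37944826 to 42451809 at 25 mM. Nothing in the labels says that biological replicates came from separate animals, so p-values measure the spread between these samples. Genes passing filterByExpr were fitted with edgeR 4.0.16 in R 4.3.3 (glmQLFit and glmQLFTest, the method of version 3, TMM), with Benjamini-Hochberg adjustment over all genes. Calls used an FDR under 0.05. With the stricter limits of the study (fold change over 2, FDR under 0.01), 0 of the 9 genes passed, as did 0 of all 21061 genes tested. The study does report genes past these limits, most of them higher at 25 mM, so this fit differs from it. Other fits also had genes past them, with 1387 of 21055 in DESeq2 and 367 of 18969 in batch 1 alone, Cabp5 among the 367. SE is the absolute log2 fold change divided by the square root of F. The common biological coefficient of variation was 0.297. Exact permutation tests on CPM were two-sided. Log2 CPM had a prior count of 2. The edgeR test of glucose over genes was run on simulated counts, 3 against 3, with a coefficient of variation of 0.3 for every gene. It recovered, at an FDR under 0.05, 8 of 100 genes with a log2 change of 1 and 96 of 100 with 2.

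The 9 genes, the lists and the alternatives were chosen with earlier results of these data known. Named beside the 9 genes were those of the 40 past an FDR of 0.05, the 2 with the largest change in each direction, the 3 genes most like the mean profile and genes that share exons. Alternatives were other normalizations and filters, DESeq2 1.42.0, limma 3.58.1 (voom), the newer quasi-likelihood method, a replicate block, single batches, 12 separate libraries, equal scaling, transcript sums, dropped libraries and left-out replicates.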

Additional observations from a re-analysis of the deposited data

Results flagged for a closer look

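The sets of 6 libraries looked at were 22 (each of the 9 genes, the total count and the mitochondrial share at each concentration). Of these, 4 held a library far from the other 5 by Dixon's criterion. About 1.1 would be flagged by chance if libraries were independent. They are technical replicates of shared biological replicates, and the sets share libraries, so that number is only a rough guide. Cabp5 was at 78.0 CPM in the second technical replicate of 5 mM replicate 1, with the other 5 mM libraries between 13.6 and 32.9 CPM. Prdm8 was at 35.3 CPM in the second technical replicate of 25 mM replicate 1, with the others between 25.1 and 28.8 CPM. For 5 mM replicate 1, the library of batch 1 had 36692484 counts, with the others between 17998905 and 25003397. Mitochondrial genes took 15.4% of the counts in the first technical replicate of 25 mM replicate 2, with the others between 7.94% and 10.24%.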

How the results depend on the processing

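Of 189 values of single genes (9 genes, 21 alternatives), 166 kept direction and side of the threshold, 18 kept direction and passed it, and 5 turned. At an FDR under 0.05, 1 of the 9 genes was called with library totals, DESeq2, no filter, 12 separate libraries and technical replicates scaled to equal totals, Prkca each time, beside 1.80% to 16.6% of all genes. With the replicate number as a block 1 was called, Scgn with an FDR of 0.0399, and 990 genes in all (4.70%). Same-numbered replicates did not deviate together (r = -0.01, -0.45 and 0.28), so the numbers were not taken as pairs. In batch 1, 5 were called, beside 17.3% of all genes, and 3 (Cabp5, Prkca and Scgn) with the second technical replicate of 5 mM replicate 1 dropped, beside 8.27%. Leaving out biological replicates gave 0 to 4, with 4 without 5 mM replicate 1 (Bhlhe23, Cabp5, Prkca and Scgn, beside 26.6% of all genes) and 0 without any other.

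In batch 2, 1 gene was above 0. The median was 0.68 in batch 1 and -0.35 in batch 2. In batch 2 Vsx1 turned to -0.14, Scgn to -0.13, Sebox to -0.35 and Isl1 to -0.37. Sebox ranged from -0.01 (-0.00692, without 5 mM replicate 1) to 0.21 when replicates were left out. The cause was not tested.

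Against 417, genes called over the table numbered 3489 with DESeq2, 1979 with no filter, 2918 with 12 libraries, 3279 in batch 1, 0 in batch 2, 1731 with the second technical replicate of 5 mM replicate 1 dropped and 0 with the first of 25 mM replicate 2 dropped. Leaving out replicates gave 0 to 5845, the highest without 5 mM replicate 1. The lowest count of a member in a biological replicate was 163, for Vsx1.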

Other observations

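Marker genes of other retinal cells were read in the same fits, and the values are given with no explanation. For 7 cone genes the median log2 change at 25 mM against 5 mM glucose was 0.49, with 5 estimates above 0. Of these 7, 1 was past an FDR of 0.05 in edgeR, against 1.98% of all genes. The 6 microglial genes all had lower estimates (median -0.98, 0 past the FDR, 3 at an unadjusted p under 0.05, against 28.7% of all genes). The median was -0.06 for 7 Mueller glia genes, -0.01 for 7 amacrine genes, 0.15 for 8 ganglion cell genes and -0.22 for 5 horizontal cell genes, with 0 past the FDR in each. Pigment epithelium genes summed to 14.0 to 15.8 CPM at 5 mM and 8.97 to 12.3 CPM at 25 mM, with a median of -0.75 over 5 genes and 0 past the FDR.

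By batch, the ganglion cell list had a median of 0.38 in batch 1, with 7 of 8 estimates above 0, and -0.52 in batch 2, with 1 of 7. The amacrine list was at 0.04 and -0.52, and the horizontal cell list at 0.58 and -0.38. The rod list stood at 1.16 in batch 1 and 1.26 in batch 2, with 8 of 8 above 0 in each. The difference between lists was not tested.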
